A study of Mus musculus with 32 samples.

Results

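A set of 40 marker genes of the liver cells that are not hepatocytes was followed in liver RNA of 16 mice. The 40 genes were chosen by name out of 55421 genes in the count table, with earlier results of these data known. They were 12 of stellate cells and fibroblasts, 10 of sinusoidal endothelium, 11 of Kupffer cells and other macrophages, 3 of neutrophils and 4 of monocytes and other myeloid cells. From every animal there were 2 libraries. The input was bulk RNA prepared with a kit for stranded mRNA; the IP was RNA broken to about 100 nucleotides, enriched for m6A (a methyl mark on adenosines) by an antibody and prepared with a different kit. There were 4 groups of 4 animals: sham-operated flox (labelled SHAM3-FLOX), sham-operated Mettl14 knockout (SHAM3-Mettl14KO), hepatectomised flox (HEPA3-FLOX) and hepatectomised Mettl14 knockout (HEPA3-Mettl14KO). Flox animals carry the floxed gene and serve as controls, and KO stands for the Mettl14 knockout. The labels give ages of 71 to 77 days, and 2 of the sham flox animals were 77 days old. The Cre driver, and so the cells in which Mettl14 was lost, was not stated in the sources.

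The liver lobule is built of hepatocytes along sinusoids. Sinusoidal endothelial cells line these vessels and scavenge material from blood, Kupffer cells are the resident macrophages within them, and stellate cells lie between endothelium and hepatocytes, store vitamin A and make collagen when activated. Neutrophils and monocytes enter from blood after injury. The complex that writes m6A holds METTL14 beside the catalytic METTL3, so an IP library reads a transcript's amount together with its methylation, while an input library reads the amount. All values are from whole liver, where fewer cells of a type and less RNA per cell cannot be told apart.

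Promoters of 4 genes described below are shown, and no result depends on them: Col1a2 (ENSMUSG00000029661) and Lrat of stellate cells, C1qb and Marco of macrophages. Each runs from 250 bases before to 20 bases after the annotated start, 5′ to 3′ on the gene's strand, from RefSeq on GRCm38.p6, which had an entry for 29 of the 40 genes. Capitals mark CCAAT or its reverse complement ATTGG in the first pair, and GAGGAA or its reverse complement TTCCTC in the second pair. CCAAT is the box bound by NF-Y, and GAGGAA is a sequence read by PU.1, an ETS factor of myeloid cells.
Col1a2: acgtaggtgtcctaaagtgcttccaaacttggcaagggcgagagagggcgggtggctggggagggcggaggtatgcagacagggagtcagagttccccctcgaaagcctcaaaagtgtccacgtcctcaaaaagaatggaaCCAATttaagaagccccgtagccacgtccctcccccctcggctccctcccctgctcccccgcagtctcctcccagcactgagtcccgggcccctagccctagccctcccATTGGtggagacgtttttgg
Lrat: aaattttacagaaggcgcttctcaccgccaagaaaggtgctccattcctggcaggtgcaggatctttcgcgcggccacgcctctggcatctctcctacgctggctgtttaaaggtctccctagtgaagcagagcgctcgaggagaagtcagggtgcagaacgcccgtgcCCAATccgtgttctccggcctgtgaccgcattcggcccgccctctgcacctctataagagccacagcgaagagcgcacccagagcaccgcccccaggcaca
C1qb: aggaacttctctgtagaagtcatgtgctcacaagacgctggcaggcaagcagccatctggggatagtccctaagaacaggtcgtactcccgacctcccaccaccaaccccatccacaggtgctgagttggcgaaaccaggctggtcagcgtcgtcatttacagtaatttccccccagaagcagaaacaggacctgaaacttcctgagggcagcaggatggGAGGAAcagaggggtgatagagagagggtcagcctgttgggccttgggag
Marco: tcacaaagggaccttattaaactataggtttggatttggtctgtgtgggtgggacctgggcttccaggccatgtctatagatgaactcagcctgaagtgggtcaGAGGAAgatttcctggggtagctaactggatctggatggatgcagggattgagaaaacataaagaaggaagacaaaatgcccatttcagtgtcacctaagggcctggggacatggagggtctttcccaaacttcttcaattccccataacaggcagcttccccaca
Col1a2 lies at chr6:4505368-4505637 on the plus strand and holds 2 matches. Lrat lies at chr3:82903955-82904224, C1qb at chr4:136886181-136886450 and Marco at chr1:120505005-120505274, all on the minus strand and with 1 match each. Of 32851 promoter entries of the same length, 35.4% held CCAAT on either strand and 25.1% held GAGGAA on either strand. These matches describe letters in a window and say nothing of binding.

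Total counts ran from 8177746 to 12533871 in the input libraries and from 7133726 to 24297713 in the IP libraries. The lowest IP total belonged to hepatectomised KO replicate 4 and the highest to sham KO replicate 4. Mettl14, the targeted gene, had 0 counts in all 16 input libraries, so the input could not check the genotype labels. Its IP level was 3.35 ± 4.04 CPM (counts scaled to the library total; mean ± SD, n = 4) in sham flox, 1.17 ± 1.37 in sham KO, 1.03 ± 0.959 in flox and 0.769 ± 1.54 in KO after hepatectomy, values that overlap.

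The markers were read far more evenly in IP libraries than in input libraries. At least 10 counts were found for 13 to 30 of the 40 genes in an input library (median 18.5) and for 22 to 39 in an IP library (median 32.5). As a share, this is 48.9% ± 11.2 in input (SD, n = 16) against 23.1% ± 5.92 of all genes with any count, and 79.4% ± 11.4 in IP against 45.6% ± 8.76. Within 1 animal, 295 of 640 gene by animal pairs reached 10 counts in both libraries, 213 in the IP library alone and 18 in the input library alone. The lowest IP share was 22 genes in a sham flox library, and hepatectomised KO replicate 4 reached 25, below the 34 to 36 of its group.

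Input levels jumped between high and nothing among animals of 1 group. Of 111 marker by group sets with at least 100 counts in some input library, 82 (73.9%) had fewer than 3 counts in another library of the same group. The share over all genes with any count was 71.4%, so the markers did not stand apart here. In IP libraries the same share was 22.6% of 137 sets for the markers and 34.8% for all genes. Fcgr2b and Clec4f were the 2 markers with at least 10 counts in every input library.

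**Figure D1:**
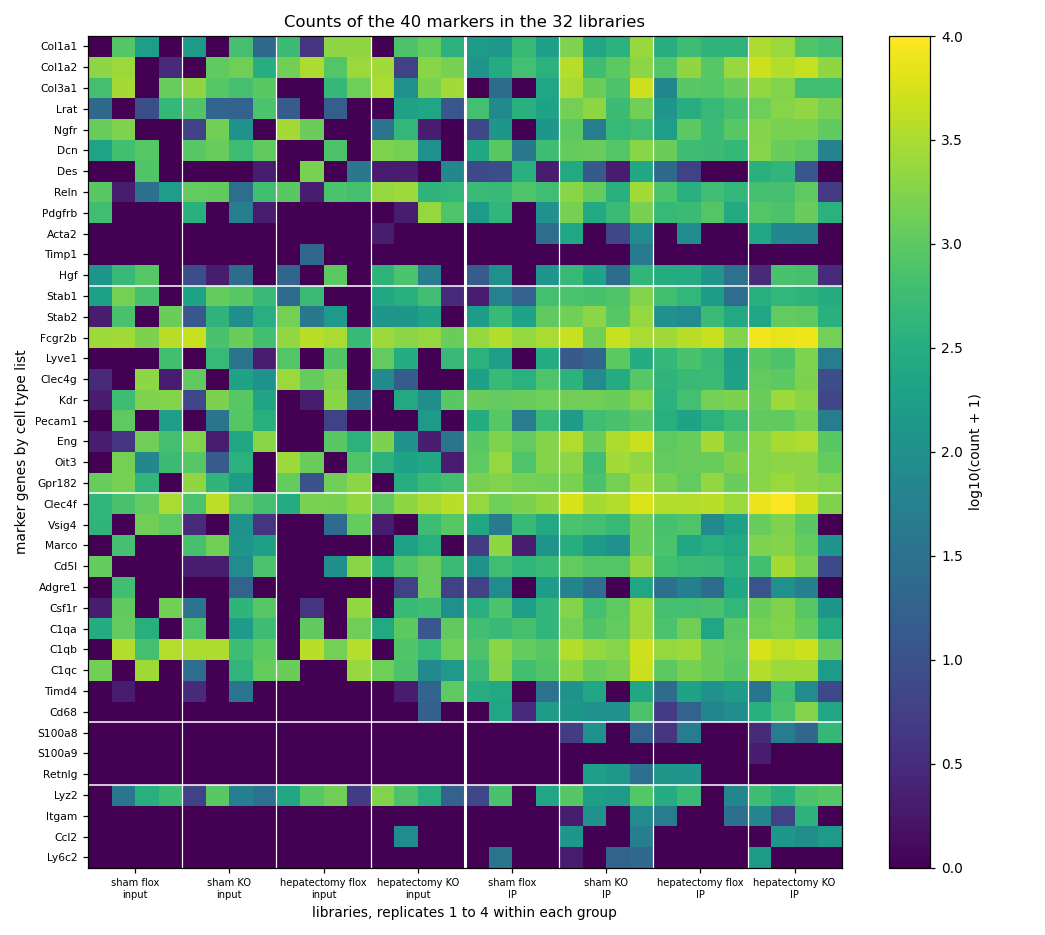
Counts of the 40 markers (rows, by cell type list) in the 32 libraries (columns, replicates 1 to 4 of each group), coloured by log10(count + 1). Input columns alternate between bright and empty cells for the same gene, 82 of 111 sets in all; 15 of the 33 stellate, endothelial and Kupffer genes had at least 10 counts in every IP column.

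The stellate and fibroblast list was higher in summed IP level in every KO than in every flox library within each surgery. Its summed level was 176 ± 20.4 CPM in sham flox, 618 ± 312 in sham KO, 372 ± 89.1 in flox and 878 ± 106 in KO after hepatectomy (SD, n = 4 each). Every hepatectomised KO library (772 to 1020 CPM) lay above every hepatectomised flox library (295 to 472), and every sham KO library (266 to 974) lay above every sham flox library (154 to 203). In input libraries the sums were 417 ± 273, 446 ± 70.9, 520 ± 33.4 and 638 ± 153 CPM in the same order, with overlapping ranges within each surgery.

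Markers of some other cell types outside the 40 genes also had higher mean summed levels in KO in the IP libraries, and red blood cell genes did not. The summed level of 15 lymphocyte and dendritic cell genes was 11 to 61.6 CPM in sham flox, 63.1 to 191 in sham KO, 10.3 to 30.6 in hepatectomised flox and 47.8 to 252 in hepatectomised KO, also without overlap between genotypes. Of these genes 5 could be tested, 4 were positive for KO minus flox after sham surgery and 3 after hepatectomy, and 0 passed. The sum of 6 cholangiocyte genes was 5.08 to 38.4, 29.6 to 183, 8.98 to 188 and 54.4 to 215 CPM in the same order, with overlap. None of the genes of these lists was at 0 in all IP libraries, and their part in the marker differences was not tested.

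Col1a2, a chain of type I collagen, was the 1 marker that passed the test for surgery. Its IP level was 10.5, 19.2, 48.3 and 21.7 CPM in the 4 sham flox animals and 58.2, 133, 51.3 and 168 CPM in the hepatectomised flox animals. In KO animals it was 217, 38.02, 53.9 and 81.6 CPM after sham surgery and 289, 180, 267 and 306 CPM after hepatectomy. All hepatectomised flox values lay above all sham flox values, while in KO animals sham replicate 1 reached into the hepatectomised range. Averaged over both genotypes, Col1a2 rose by 1.72 ± 0.38 on the log2 scale (SE; adjusted p = 0.034, edgeR quasi-likelihood test, Benjamini-Hochberg over all genes tested), 1 of 38 tested markers against 0.656% of 14020 genes called in either direction and 0.221% called higher. The call was lost without the 77-day animals (1.46, adjusted p = 0.22) and on leaving out any 1 of 9 animals: sham flox replicates 1, 2 and 4, sham KO replicates 2, 3 and 4, hepatectomised flox replicates 2 and 4 and hepatectomised KO replicate 1 (adjusted p = 0.06 to 0.087).

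Within each genotype the same difference in Col1a2 was 2.08 ± 0.55 in flox (adjusted p = 0.3) and 1.36 ± 0.53 in KO (adjusted p = 0.36) by edgeR. In input libraries its levels ran from 0 to 273 CPM over the 16 animals, with 3 animals under 3 counts. No order of the groups could be read from these.

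Lrat, the enzyme that stores retinol as ester in stellate cells, had 59.6, 5.31, 26.4 and 12.9 CPM in sham flox IP libraries and 85.8, 142, 29.8 and 57.9 CPM in sham KO. After hepatectomy it had 8.45, 19.2, 26.7 and 46.3 CPM in flox and 76.2, 96.2, 138 and 208 CPM in KO. The hepatectomised groups did not overlap and the sham groups did. The KO minus flox difference was 2.10 ± 0.68 on the log2 scale after hepatectomy (SE; adjusted p = 0.15 by edgeR) and 1.53 ± 0.67 after sham surgery (adjusted p = 0.77).

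Ngfr, the p75 neurotrophin receptor of stellate cells, had 0.545, 8.40, 0 and 7.995 CPM in sham flox IP libraries and 11.2, 60.2, 29.9 and 61.9 CPM in hepatectomised flox. In KO animals it had 57.4, 3.09, 25.8 and 24.7 CPM after sham surgery and 107, 79.0, 95.4 and 145 CPM after hepatectomy. Hepatectomised libraries lay above sham libraries within each genotype, and after hepatectomy KO lay above flox. The hepatectomy minus sham difference averaged over both genotypes was 2.61 ± 0.69 on the log2 scale (SE; adjusted p = 0.084 by edgeR), and none of its differences passed the threshold.

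Among the other collagens, Col3a1 had 0, 1.64, 0 and 14.0 CPM in sham flox IP libraries and 177, 83.4, 41.8 and 204 CPM in sham KO, with no overlap. Its KO minus flox difference there was 4.80 ± 1.16 on the log2 scale, with an adjusted p of 0.17 by edgeR; Col3a1 and Col1a1 are named here after their values were seen. Col1a1 had 21.5 to 35.7 CPM in hepatectomised flox and 49.0 to 187 CPM in hepatectomised KO. Pdgfrb, the receptor for PDGF on stellate cells and pericytes, averaged 11.9 ± 12 CPM in sham flox IP libraries, 49.9 ± 32.6 in sham KO, and 33.4 ± 12.1 in flox and 52.8 ± 15 in KO after hepatectomy (SD, n = 4). Dcn, Reln and Hgf, which encode decorin, reelin and hepatocyte growth factor, reached 10 counts in 16, 15 and 13 of 16 IP libraries. Of the genes linked to activation, Acta2 (smooth muscle actin) totalled 832 counts over the IP libraries and 1 count over the inputs, and Timp1 (an inhibitor of matrix proteases) reached 10 counts in 1 IP library. Des (desmin) was present in some animals and nearly absent in others: it reached 10 counts in 8 IP libraries, with up to 26.2 CPM, and in 4 inputs, with 134 CPM in 1 hepatectomised flox animal and 79.0 CPM in 1 sham flox animal.

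**Figure D2:**
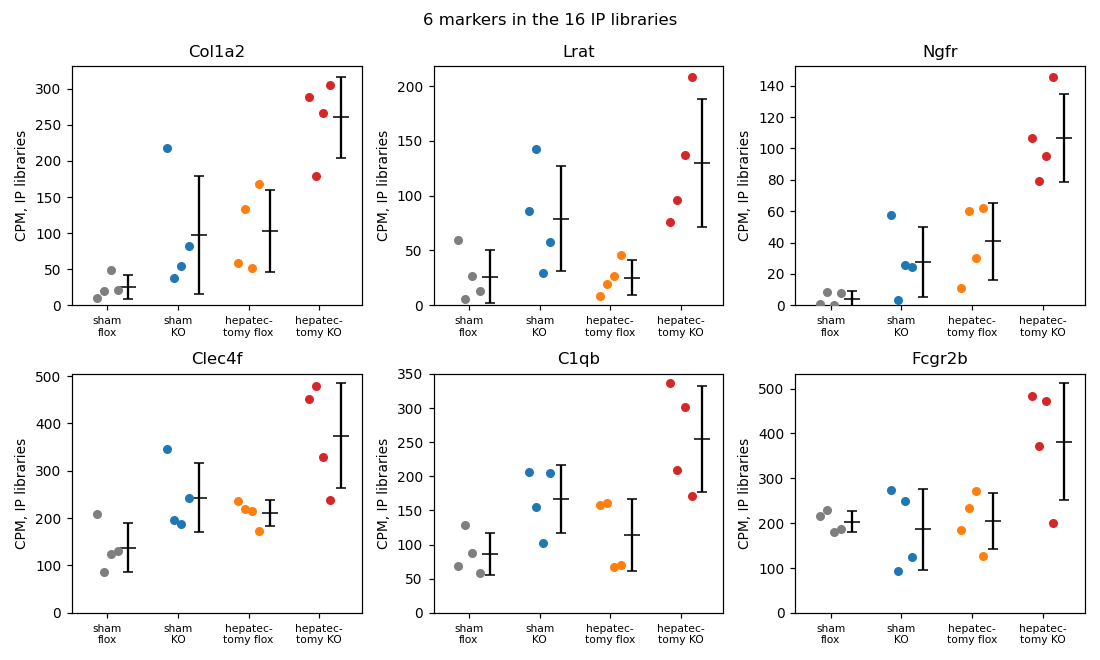
CPM of 6 markers in the 16 IP libraries: points are animals, and the bar beside them is the group mean with its SD (n = 4). Col1a2, Lrat, Ngfr, Clec4f and C1qb in hepatectomised KO lie above every hepatectomised flox animal, and Fcgr2b, with 201 CPM in its lowest hepatectomised KO animal, does not.

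The endothelial list differed less between groups. Its summed IP level was 726 ± 106 CPM in sham flox, 826 ± 165 in sham KO, 656 ± 117 in flox and 1120 ± 236 in KO after hepatectomy (SD, n = 4). The hepatectomised KO range of 844 to 1420 CPM began just above the hepatectomised flox range of 587 to 831. In input libraries the order for this list was the other way, at 360 ± 99.8 CPM in hepatectomised KO, the lowest of the 4 group means, though the ranges overlapped. For 14 endothelial genes outside this list, hepatectomised KO had the highest input mean instead, at 947 ± 321 CPM (716 to 1400). Hepatectomised flox had 686 ± 177 CPM (430 to 821), with overlap. The input order thus depended on which endothelial genes were summed.

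Per kilobase of exon, Fcgr2b (42.1 CPM per kb), Oit3 (36.8) and Eng (31.3) had the highest mean IP levels of the list over 16 libraries. Fcgr2b is the inhibitory IgG receptor by which these cells clear immune complexes, and its reads can be shared with other Fc receptors of near-identical sequence. Its IP level was 215, 230, 180 and 187 CPM in sham flox, 274, 93.9, 250 and 126 in sham KO, 186, 234, 272 and 126 in hepatectomised flox, against 484, 371, 472 and 201 in hepatectomised KO. Replicate 4 of the last group overlapped the others, and the KO minus flox difference after hepatectomy was 0.64 ± 0.38 on the log2 scale (SE; adjusted p = 0.54 by edgeR). Eng (endoglin, a TGF-beta co-receptor) averaged 97.7 ± 14.8, 163 ± 55.4, 95.6 ± 44.1 and 150 ± 36.9 CPM over the groups (sham flox and KO, then hepatectomised flox and KO). Oit3 averaged 104 ± 38.1, 101 ± 48.3, 82.8 ± 18.9 and 122 ± 25.6 CPM in the same order, with overlapping ranges.

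The scavenger receptors Stab1 and Stab2 had their highest group mean in sham KO, at 51.5 ± 13.4 and 91.8 ± 35.5 CPM (SD, n = 4). Stab1 had 43.4 to 71.4 CPM in sham KO against 0.0908 to 38.8 in sham flox and 19.3 to 41.6 in hepatectomised KO, without overlap in either comparison, and no test of it passed. Kdr, the VEGF receptor of endothelium, had 70.3, 135, 119 and 0.841 CPM in hepatectomised KO. The last value is replicate 4, which also had 1.12 CPM of Clec4g, a lectin of sinusoidal endothelium, against 49.8 to 99.1 in the rest of its group. Gpr182, Lyve1 (a hyaluronan receptor) and Pecam1 (an adhesion molecule of endothelial junctions) reached 10 counts in 16, 15 and 16 IP libraries, and no difference in them passed the threshold.

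The Kupffer and macrophage list summed to 467 ± 117 CPM in sham flox IP libraries, 838 ± 256 in sham KO, 594 ± 132 in flox and 1140 ± 405 in KO after hepatectomy (SD, n = 4). The hepatectomised KO animals had 1370, 1400, 1260 and 542 CPM, and the last, replicate 4, lay inside the hepatectomised flox range of 467 to 716. In input libraries the 4 means lay between 533 and 572 CPM.

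C1qb, C1qa and C1qc, the chains of complement C1q, and Clec4f, a lectin of Kupffer cells, had the highest IP levels per kilobase of any markers on this list, at 143, 58.6, 50.6 and 97.7 CPM per kb. C1qb had 69.0, 128, 87.7 and 58.1 CPM in sham flox, 206, 155, 102 and 205 in sham KO, 158, 162, 67.2 and 70.8 in hepatectomised flox, against 336, 209, 302 and 171 in hepatectomised KO. After hepatectomy no KO library overlapped the flox libraries. The difference was 0.87 ± 0.41 on the log2 scale (SE; adjusted p = 0.34 by edgeR), and that after sham surgery was 0.82 ± 0.41 (adjusted p = 0.91). C1qa averaged 41.5 ± 14.8, 77.6 ± 24.1, 53.5 ± 30.4 and 71.1 ± 22.7 CPM over the groups (sham flox and KO, then hepatectomised flox and KO).

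Clec4f had 208, 85.3, 125 and 131 CPM in sham flox, 346, 197, 188 and 243 in sham KO, 237, 219, 215 and 174 in hepatectomised flox, against 451, 478, 329 and 238 in hepatectomised KO. The lowest hepatectomised KO animal stood just above the highest hepatectomised flox animal. Its KO minus flox difference was 0.55 ± 0.35 on the log2 scale after hepatectomy (SE; adjusted p = 0.59 by edgeR). Marco, a scavenger receptor, had 139 CPM in sham flox replicate 2 against 0.077 to 7.14 in the other sham flox IP libraries and 5.79 to 49.8 in sham KO. After hepatectomy Marco had 49.6, 15.3, 18.2 and 18.7 CPM in flox and 97.5, 92.6, 68.8 and 16.7 CPM in KO, where replicate 4 alone lay within the flox range. Cd68, a lysosomal protein of macrophages and named after its values were seen, had 18.6 to 111 CPM in hepatectomised KO and 0.272 to 6.33 in hepatectomised flox. Vsig4, Cd5l, Csf1r, Adgre1 and Timd4 (a complement receptor, a secreted scavenger protein, the CSF1 receptor, the F4/80 antigen and a phosphatidylserine receptor) reached 10 counts in 15, 15, 16, 12 and 13 IP libraries. Csf1r shares 15.1% of its exonic bases with a gene on the other strand.

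**Figure D3:**
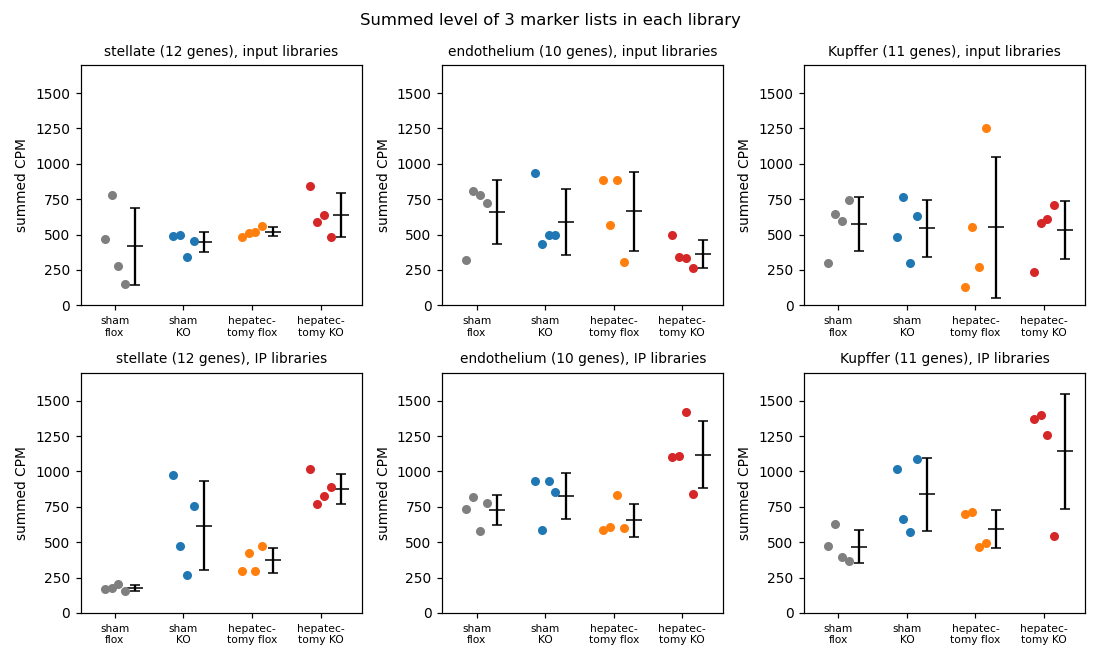
Summed CPM of the stellate, endothelial and Kupffer lists in each library, input above and IP below; points are animals and the bar is the group mean with its SD (n = 4). Stellate IP sums separate KO from flox within each surgery (266 to 974 against 154 to 203, and 772 to 1020 against 295 to 472), and input sums overlap.

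Neutrophil and monocyte genes were scarce. S100a8, S100a9 and Retnlg (calprotectin subunits and a resistin-like protein of neutrophils), Itgam (CD11b) and Ly6c2 had 0 counts in every one of 16 inputs, where 3 counts would be 0.239 to 0.367 CPM. S100a8 totalled 706 counts over the IP libraries, most of them in hepatectomised KO replicate 4 at 63.6 CPM against 0.117 to 2.51 in the rest of its group. S100a9, its partner, totalled 1 count over all IP libraries, and Retnlg reached 10 counts in 5 IP libraries. The sham flox IP libraries had 0 counts of all 3 neutrophil genes. Lyz2, lysozyme of myeloid cells, was the 1 abundant gene of the monocyte list at 15.2 ± 21.5, 27.7 ± 20.8, 14.6 ± 15.3 and 54.4 ± 47.0 CPM over the groups (sham flox and KO, then hepatectomised flox and KO) (SD, n = 4). It has a near-identical copy, Lyz1, and Ly6c2 has Ly6c1, so both are uncertain. Ccl2, a chemokine that draws monocytes, reached 10 counts in 5 IP libraries and 1 input library, and Itgam, which shares 68.7% of its exonic bases with an unnamed gene on the same strand, in 6 IP libraries.

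No marker passed the KO minus flox test in IP libraries in either surgery, 0 of 38, where 0.0927% of 14020 genes did after sham surgery and 1.5% after hepatectomy. At an unadjusted p under 0.05 by edgeR, 11 markers passed after sham surgery (5.69% of all genes) and 7 after hepatectomy (13.3%). DESeq2 called Col3a1 in the first case (1.33% of all genes) and Lrat, Cd68 and Ly6c2 in the second (5.77%). Ly6c2 rests on 1 library: it had 152 counts in hepatectomised KO replicate 1 and 0 in the other hepatectomised IP libraries. The 2 low genes outside the test were Timp1 and S100a9. After hepatectomy 35 of 38 markers had a positive difference, with a median of 0.62 against 0.01 for all genes, of which 50.2% were positive. With no scaling factors both medians moved up, to 0.91 and 0.28. Without KO replicate 4 these were 35 of 38, with a median of 0.87 against 0.06. After sham surgery 27 of 38 were positive, with a median of 0.83 against 0.16, and without the 77-day animals 32 of 38 were, with a median of 1.14 against 0.38. Ccl2 had 0 counts in all flox IP libraries and passed the filter through KO libraries alone. Its positive sign was therefore fixed in advance and is no evidence in these counts. Ly6c2 is also among the 35.

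By list, the median KO minus flox difference on the log2 scale was 1.79 for stellate genes after sham surgery (10 of 11 positive) and 1.07 after hepatectomy (10 of 11). It was -0.10 and 0.47 for endothelial genes, and 0.73 and 0.55 for Kupffer genes. When each of the 8 animals compared was left out in turn, the stellate medians ran from 1.13 (without sham KO replicate 1) to 2.12 and from 0.83 to 1.27. The endothelial medians ran from -0.34 to 0.01 and from 0.31 to 0.67, and the first was 0.33 without the 77-day animals, so it had no settled direction. The Kupffer medians ran from 0.64 to 1.06 and from 0.30 (without hepatectomised KO replicate 2) to 0.90 (without hepatectomised KO replicate 4). Of 12 other stellate genes that are not among the 40, 12 were positive after sham surgery with a median of 1.41 and 8 after hepatectomy with a median of 0.78, and 0 passed. The summed IP level of 14 other endothelial genes was 643 to 1170 CPM in sham KO against 659 to 887 in sham flox. After hepatectomy it was 895 to 1710 in KO against 651 to 843 in flox, without overlap. That of 10 other Kupffer genes was 259 to 389 against 207 to 264, and 190 to 728 against 206 to 457, with overlap. Groups at 0 counts of a gene give fitted values with no bound, and with such genes at 3 counts the medians over all markers were 0.84 and 0.62.

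In all, 7 markers were higher in every KO than in every flox IP library after hepatectomy (7 of 38, against 4.37% of all genes): Col1a1, Col1a2, Lrat, Ngfr, Clec4f, C1qb and Cd68. After sham surgery Col3a1, Stab1 and Cd5l were (3 of 38, against 3.54%). Without hepatectomised KO replicate 4 the first count was 14 of 38 against 12% of all genes. These counts used CPM, without the scaling factors of the tests. Clec4f was separated by only 238.3 against 236.6 CPM. The hepatectomised KO group had the highest IP mean for 26 of 38 markers (68.4%) and for 37.8% of all genes tested. Ccl2, which had IP counts in KO libraries alone, is among the 26.

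Hepatocyte genes had a lower summed mean in KO than in flox in the same IP libraries, with overlapping ranges. The summed IP level of 12 hepatocyte genes was 51000 ± 19500 CPM in hepatectomised KO (29100 to 76600), against 79000 ± 6850 in hepatectomised flox (73800 to 89100). It was 70800 ± 13400 in sham KO (62100 to 90400) and 75600 ± 4130 in sham flox (70700 to 79300). Apoa1, an apolipoprotein, fell by 1.44 and Hnf4a, a hepatocyte transcription factor, fell by 1.29 on the log2 scale in KO against flox after hepatectomy (adjusted p = 0.0096 and 0.014 by edgeR). In input libraries the group means of the same sum lay between 78500 and 81600 CPM. CPM values share 1 total, and the part of the hepatocyte genes in the marker differences was not tested.

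**Figure D4:**
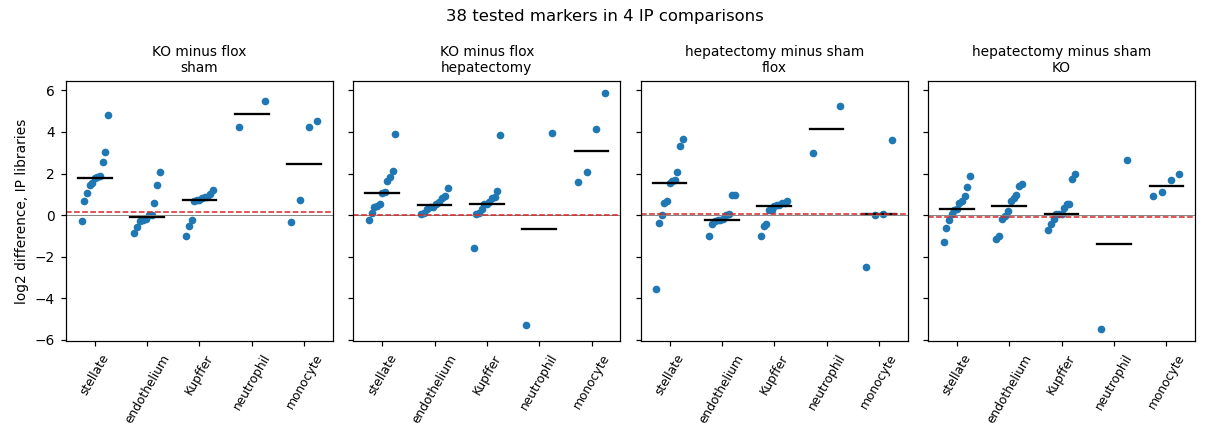
Log2 differences of the 38 tested markers in 4 IP comparisons, by cell type list: each point is a gene, the black bar is the list's median and the dashed line is the median of all 14020 genes. Stellate medians reach 1.79 and 1.07 for KO minus flox and 1.56 and 0.29 for hepatectomy minus sham, in flox and KO; neutrophil and monocyte points rest on groups at or near 0 counts.

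For hepatectomy minus sham, 0 of 38 markers passed in flox (0.0285% of all genes called) and 0 of 38 in KO (0.635%), with 7 and 4 at an unadjusted p under 0.05 by edgeR (6.93% and 9.46% of all genes) and 3 and 0 called by DESeq2 (1.95% and 2.95%). Over both genotypes 7 markers passed at an unadjusted p under 0.05 (10.6% of all genes), and DESeq2 called Col1a2 and Ngfr (3.66%). The marker medians were 0.34 and 0.43 against 0.05 and -0.09 for all genes. Stellate genes had a median of 1.56 in flox and 0.29 in KO, endothelial genes -0.22 and 0.44, and Kupffer genes 0.43 and 0.07. Single animals moved these values. With 1 of 8 animals left out, the flox medians ran from 0.79 (without hepatectomised replicate 2) to 1.75 for stellate genes, from -0.27 to 0.02 (without sham replicate 2) for endothelial genes and from 0.18 (without hepatectomised replicate 2) to 0.50 for Kupffer genes. In KO they ran from -0.08 (without sham replicate 3) to 0.77 (without sham replicate 1) for stellate genes, from 0.23 (without hepatectomised replicate 3) to 0.65 for endothelial genes, and from -0.06 (without sham replicate 3) to 0.44 (without hepatectomised replicate 4) for Kupffer genes. The stellate and Kupffer medians in KO and the endothelial median in flox thus had no settled direction. The flox and KO comparisons were set against each other by the interaction test, which called 0 of 38 markers (0.0285% of all genes). At an unadjusted p under 0.05 it gave 3 markers (7.88% of all genes), and DESeq2 called 2 (1.91%), Ly6c2 and Retnlg. In flox animals Col1a2 and Ngfr were higher in every hepatectomised than in every sham library (2 of 38, against 2.45% of all genes). In KO animals Ngfr was (2.12%), and Stab1 was lower throughout (4.34%).

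In input libraries 29 markers could be tested, and 0 passed any of the 5 comparisons. The shares of all 8769 genes called were 0.0114% for KO minus flox after sham surgery, 0.0342% after hepatectomy, 0.0% for hepatectomy minus sham in flox, 0.0114% in KO and 0.0228% over both genotypes. At an unadjusted p under 0.05 there were 0, 2, 2, 0 and 1 markers by edgeR, against 9.17%, 14.0%, 17.0%, 2.76% and 12% of all genes. DESeq2 called 0, 2, 2, 0 and 2, each time Marco and Pdgfrb, against 7.45%, 12%, 15.4%, 1.69% and 14.1%.

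IP levels set against input in the same group asked which marker transcripts were over-represented by the antibody step, together with the change of kit. In hepatectomised flox animals Pdgfrb and Marco passed (2 of 38, against 1.24% of 14328 genes), with 11 at an unadjusted p under 0.05 (34.9%) and 7 called by DESeq2 (28.8%). Pdgfrb had 32.5, 33.3, 48.7 and 19.1 CPM in IP libraries and 0 counts in all 4 inputs (adjusted p = 0.048 by edgeR). With the input group set at 3 counts it was 537-fold higher in IP. Marco had 49.6, 15.3, 18.2 and 18.7 CPM in IP and 0 counts in the inputs (adjusted p = 0.049 by edgeR), 392-fold higher with the inputs set likewise. Both genes reached 190 and 123 CPM in single input libraries of other groups. Both calls were lost when any 1 hepatectomised flox animal was left out (adjusted p = 0.11 to 0.14). The test did not pair the input and IP library of an animal, and both calls were also lost when each animal was taken as a block.

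In the other groups 0 of 38 markers passed IP minus input: 0.279% of all genes did in sham flox, 0.0209% in sham KO and 0.37% in hepatectomised KO, with 4, 7 and 6 markers at an unadjusted p under 0.05 by edgeR (30.3%, 20.5% and 19.9% of all genes) and 4, 4 and 4 called by DESeq2 (24.7%, 14.5% and 14.2%). These shares of the 38 markers lie below those of all genes. The marker medians were 0.00, 0.36, 0.95 and 1.14 on the log2 scale in sham flox, hepatectomised flox, sham KO and hepatectomised KO, against 0.82, 1.06, 0.69 and 0.28 for all genes. The KO minus flox difference of the IP/input ratio passed for 0 of 38 markers after sham surgery (0.0209% of all genes) and 0 of 38 after hepatectomy (0.712%), with 2 and 6 at an unadjusted p under 0.05 by edgeR (14.8% and 21.4% of all genes) and 2 and 6 called by DESeq2 (17.3% and 22.6%), again below the shares of all genes. Colec11, a lectin of stellate cells outside the 40 genes, had 8.75 ± 1.85 for IP minus input in hepatectomised flox (adjusted p = 0.011) and -7.34 ± 1.87 for the KO minus flox difference of the ratio there (adjusted p = 0.043), both by edgeR. It was named because it passed. Fitted differences of this size can come from inputs at or near 0 counts, so they are not read as a size of enrichment.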

How the data were processed

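Liver RNA of 16 mice was sequenced as input and IP libraries. The submitters' processing notes name fastp (a read trimmer) and STAR (an aligner); their versions, how reads were counted and on which strand, and the build were not given in the sources. The authors deposited estimated counts (expected counts) per Ensembl gene, not scaled; up to 8.22% of a column's values were not whole, and all were rounded. Genes were named by position against RefSeq genes on GRCm38.p6, used for names and promoters: 39034 of 55421, and all 40 markers.

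Levels are counts scaled to the library total (CPM). Tests used edgeR 4.0.16 (quasi-likelihood, TMM factors, limma 3.58.1, R 4.3.3) after filterByExpr (minimum count 10, 29 markers kept in input, 38 in IP), over all genes with Benjamini-Hochberg adjustment at 0.05; prior count 2 for fitted values. IP minus input and its ratio used 1 fit of all 32 libraries, which did not pair the input and IP library of an animal. For that fit, the alternative called the replicate block took each animal as a block. Alternatives were DESeq2 1.42.0, other factors and filters, the replicate block, leaving out animals, and, added after seeing the data, leaving out the 2 animals of extreme IP total. Tables were made with Python 3.11.15 and pandas 2.3.3. The fits were tested on simulated data. All 32 sample columns were used.

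Members and lists were chosen with earlier results of these data known. All 40 are accounted for; values are given for markers past the threshold and for the 3 of each list with the highest IP level per kilobase, and values of other markers (such as Col1a1, Col3a1, Des, Stab1, Stab2, Kdr, Clec4g and Cd68) were chosen after they were seen. Deviations from group means correlated at -0.07 to 0.06 in input and -0.12 to 0.35 in IP for libraries of the same replicate number. Input and IP of 1 animal, paired by the labels, correlated at only -0.01 to 0.12. Since a known pair was not seen by it, this check could not decide whether numbers pair animals across groups. The floors of 3 counts cover counting error only, and PCR reads are not independent molecules. The SD and SE values include the spread between animals.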

Additional observations from a re-analysis of the deposited data

Results flagged for a closer look

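Within each group of 4 libraries, the highest and the lowest library were compared with their nearest neighbour for each summed marker list and each marker described by rule. In 23 of 141 groups checked, 1 library stood farther from the rest than Dixon's 95% critical value for the gap over the range. Its chance rate of about 5% assumes normally distributed values and separate groups. A group with counts in only 1 library, such as Pdgfrb in sham flox input, is flagged whatever the level. Some flags also repeat the same values, such as S100a8 and the summed neutrophil level. The 23 groups therefore cannot be set against 5%, and they only list libraries to look at.

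In hepatectomised KO IP replicate 4, the IP library with the lowest total, the S100a8 level was 63.6 CPM against 2.51 in the next library, and since the other neutrophil genes had 0 counts there, its summed neutrophil level was the same 63.6 CPM. Its summed Kupffer level was 542 CPM, below 1260 in the next lowest. S100a9 in the same group had 0.0582 CPM in replicate 1, a single count, and 0 in the others.

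In the flox IP libraries Marco stood at 139 CPM in sham replicate 2, with 7.14 in the next, and at 49.6 CPM in hepatectomised replicate 1, with 18.7 in the next. Eng stood at 162 CPM in hepatectomised flox replicate 3 (next 77.1), which also had the highest summed endothelial level at 831 CPM (next 609). Oit3 stood at 111 CPM in hepatectomised flox replicate 4 (next 74.1). S100a8 stood at 7.39 CPM in sham KO replicate 2 (next 0.7) and at 2.93 CPM in hepatectomised flox replicate 2 (next 0.204).

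Among input libraries, sham KO replicate 2 stood apart for Ngfr at 125 CPM (next 11), Clec4f at 357 CPM (next 106) and Lyz2 at 83.4 CPM (next 5.2), the last also being its summed monocyte level of 83.4 CPM. Sham KO replicate 1 had 30.1 CPM of Pdgfrb (next 4.9) and a summed endothelial level of 936 CPM (next 500). In sham flox, Pdgfrb was 48.8 CPM in replicate 1 and 0 in the others, Marco was 53.9 CPM in replicate 2 and 0 in the others, and Lrat was 37.0 CPM in replicate 4 (next 1.86). In hepatectomised KO, replicate 2 had 42.1 CPM of Ngfr (next 2.69) and 8.33 CPM of Ccl2 (next 0), and replicate 1 had 135 CPM of Eng (next 10.1).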

How the results depend on the processing

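Marker calls changed with the test and its filter. With DESeq2 the number of markers called was 2, 2 and 2 in input for KO minus flox after hepatectomy, hepatectomy minus sham in flox and over both genotypes (0 in the main test). In IP it was 1 for KO minus flox after sham surgery, 3 after hepatectomy, 3 for hepatectomy minus sham in flox, 2 over both genotypes and 2 for the interaction. For IP minus input it was 4, 7, 4 and 4 in sham flox, hepatectomised flox, sham KO and hepatectomised KO, and 2 and 6 for KO minus flox of IP/input after sham surgery and hepatectomy. With no filter, 1 marker was called for KO minus flox after sham surgery in IP, 3 for hepatectomy minus sham in flox, 2 over both genotypes, 1 for the interaction and 1 for KO minus flox of IP/input after hepatectomy. The 50 CPM filter called 1 (Lrat) for KO minus flox after hepatectomy in IP. The replicate block called 1 (Col3a1) for KO minus flox after sham surgery in IP and, like the upper-quartile factors, no factors and the 50 CPM filter, 0 for IP minus input in hepatectomised flox; it changed no other marker count by over 1.5 times. Without the animals of extreme IP total that comparison called 1, and without the 77-day animals hepatectomy minus sham over both genotypes called 0. Leaving out 1 animal gave 0 to 1 for KO minus flox after sham surgery, hepatectomy minus sham in flox, over both genotypes and the interaction in IP, 0 to 1 for IP minus input in hepatectomised flox and 0 to 1 for KO minus flox of IP/input after hepatectomy; Col3a1 and Dcn supplied calls absent from the main test. At 30 counts, hepatectomised flox IP libraries held 30.5 markers on average (32.2 at 10 counts), and TMM scaling put the summed stellate input level of hepatectomised flox at 457 CPM (520 unscaled). No described marker's own difference changed sign. The endothelial median for KO minus flox after sham surgery in IP (-0.10) was 0.01 with no factors, 0.33 without the 77-day animals and -0.34 to 0.01 on leaving out 1 animal. That for hepatectomy minus sham in flox (-0.22) was 0.0 without the 77-day animals and -0.27 to 0.02 on leaving out 1 animal. For hepatectomy minus sham in KO, leaving out 1 animal gave -0.08 to 0.77 for stellate and -0.06 to 0.44 for Kupffer genes. Their cause was not tested. In input libraries, 82 of 111 sets with 100 counts in 1 library had under 3 in another of the group, and input totals lay within the range of the IP totals; the cause was not tested.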
